A study of Homo sapiens with 6 samples.

Results

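Antisense RNAs are transcripts made from the strand opposite a named gene, here called the sense gene. They were followed in H295R, a steroid-producing cell line from a human adrenocortical carcinoma, after 24 h with 5 µM CX-4945 or with the solvent DMSO alone. The compound, also called silmitasertib, blocks the kinase CK2, and the CLK kinases that act on splicing factors are a known second target. The members are the genes whose symbol is that of another gene followed by -AS and 1 digit, and whose sense gene has a row of its own on the array. Of 33616 genes with a single symbol, 985 had such an antisense name and 903 of these also had a measured sense gene. The 903 antisense RNAs faced 818 different sense genes, because 65 sense genes had more than 1 antisense RNA. There were 3 arrays per group. All 6 came from the same line, with no genetic change named in the labels, and only the agent differed between the groups.

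Antisense RNAs can begin at the same promoter region as the sense gene and run away from it, or can run across its body. They are mostly long noncoding RNAs. Single examples are known to recruit chromatin regulators, to pair with the sense RNA or to block its transcription by passing through it, whereas for many no role is known. A level that goes with, against or apart from that of the sense gene is therefore the first thing such a comparison can describe. In RefSeq (GRCh38.p14), 890 of the 903 antisense names were found and 886 were classed as long noncoding RNA. The labels do not say whether a row reads 1 strand only. Where exons of both partners overlap, signal from the other strand cannot be told apart.

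For 607 pairs RefSeq promoter windows, from 250 bases before to 50 after the annotated start, were at hand for both partners. In 223 of them the 2 starts lay within 1000 bases on opposite strands, an arrangement here called head to head. This class holds pairs that run apart and also pairs that run toward each other and overlap. A further 359 pairs overlapped on opposite strands with starts farther apart, 24 lay on opposite strands without overlap and 1 pair lay on the same strand. The remaining 296 pairs were not placed here. The windows below belong to the 3 named head to head pairs with the largest changes of the antisense RNA. They show how close the start of an antisense RNA that changed can lie to that of a sense gene that did not pass the test. Capitals mark matches on either strand to the letters of 3 motifs. They are TGACG, the core of cAMP response elements, the CCAAT box spelled by its name, and the E-box with the letters CACGTG. The TATA box, searched by the letters TATAAA, occurs in none of the 6 windows. No 2 marked matches share a base.

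THAP9-AS1, chr4:82900867-82901166, minus strand: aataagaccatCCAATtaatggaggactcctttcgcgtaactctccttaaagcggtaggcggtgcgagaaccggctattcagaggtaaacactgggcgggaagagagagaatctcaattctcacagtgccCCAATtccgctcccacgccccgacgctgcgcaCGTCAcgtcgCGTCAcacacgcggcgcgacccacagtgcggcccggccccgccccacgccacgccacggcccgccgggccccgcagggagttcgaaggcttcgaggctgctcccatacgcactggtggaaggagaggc
THAP9, chr4:82900485-82900784, plus strand: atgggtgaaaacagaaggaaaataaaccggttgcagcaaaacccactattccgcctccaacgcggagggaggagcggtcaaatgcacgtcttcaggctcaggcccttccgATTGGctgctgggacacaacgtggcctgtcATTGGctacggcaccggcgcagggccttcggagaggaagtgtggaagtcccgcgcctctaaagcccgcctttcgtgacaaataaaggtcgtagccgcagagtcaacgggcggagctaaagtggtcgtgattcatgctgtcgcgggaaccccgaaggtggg
RAP2C-AS1, chrX:132218257-132218556, plus strand: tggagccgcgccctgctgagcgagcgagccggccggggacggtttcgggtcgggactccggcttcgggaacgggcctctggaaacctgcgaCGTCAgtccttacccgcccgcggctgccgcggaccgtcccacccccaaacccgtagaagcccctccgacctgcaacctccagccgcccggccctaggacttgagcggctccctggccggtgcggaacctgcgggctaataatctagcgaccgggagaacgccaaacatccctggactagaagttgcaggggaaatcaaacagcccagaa
RAP2C, chrX:132219398-132219697, minus strand: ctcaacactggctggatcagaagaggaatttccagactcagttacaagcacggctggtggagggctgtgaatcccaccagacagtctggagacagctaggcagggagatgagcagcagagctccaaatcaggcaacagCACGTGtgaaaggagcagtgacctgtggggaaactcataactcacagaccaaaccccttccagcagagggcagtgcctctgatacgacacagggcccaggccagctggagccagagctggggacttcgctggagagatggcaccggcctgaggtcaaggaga
LCMT1-AS1, chr16:25111506-25111805, minus strand: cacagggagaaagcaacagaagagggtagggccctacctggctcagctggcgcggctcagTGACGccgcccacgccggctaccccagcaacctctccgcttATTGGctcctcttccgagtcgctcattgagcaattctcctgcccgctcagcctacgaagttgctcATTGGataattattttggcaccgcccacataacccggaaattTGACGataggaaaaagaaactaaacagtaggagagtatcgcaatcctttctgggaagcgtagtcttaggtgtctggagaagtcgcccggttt
LCMT1, chr16:25111492-25111791, plus strand: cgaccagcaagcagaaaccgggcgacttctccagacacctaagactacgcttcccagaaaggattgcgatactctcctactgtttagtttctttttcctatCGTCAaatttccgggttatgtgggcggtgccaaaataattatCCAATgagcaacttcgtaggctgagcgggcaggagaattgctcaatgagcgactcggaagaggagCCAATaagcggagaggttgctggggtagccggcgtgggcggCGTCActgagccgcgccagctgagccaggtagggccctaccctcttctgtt

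The starts of LCMT1 and LCMT1-AS1 lay 187 bases apart and pointed away from each other, so that their windows shared 286 bases read on opposite strands. Both windows hold 2 TGACG and 2 CCAAT matches. The starts of THAP9 and THAP9-AS1 lay 181 bases apart and those of RAP2C and RAP2C-AS1 940 bases apart. In these 2 pairs the partners run toward each other, so the first bases of the antisense RNA lie inside the sense gene. The THAP9-AS1 window holds 2 TGACG and 2 CCAAT matches, that of RAP2C-AS1 1 TGACG match, and that of RAP2C 1 E-box. Over all 27305 genes with a promoter window, 28.4% held TGACG, 39.7% CCAAT, 8.77% CACGTG and 13.99% TATAAA. Among the antisense RNAs called higher by the test below, 41 had windows. Of these, 22.0% held TGACG, 34.1% CCAAT, 17.1% CACGTG and 17.1% TATAAA, with a median GC content of 50.3%. Among the 56 called lower, the shares were 32.1%, 30.4%, 3.57% and 7.14% in the same order, with a median GC content of 67.0%. A gene counted if any of its windows matched. The 41 had 43 windows, the 56 had 69 and all 27305 genes had 35116, so genes with more windows could match more often. The shares are descriptions of letters and say nothing about which factor binds.

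The DMSO arrays had median intensities of 40.7 to 43.1 over all rows, and the treated arrays 45.8 to 46.5. CX-4945 replicate 2 correlated with the other treated arrays at 0.988 and 0.990 across genes, and those 2 with each other at 0.994, so counts are also given without it. A log2 intensity of 6.40 served as background level. Means of 374 genes for olfactory receptors fell under it in 95% of cases. Of 9 measured adrenocortical markers 8 lay above it in DMSO, from HSD3B2 at 9.97 to SCARB1 at 17.8 on the log2 scale, and INHA, the inhibin alpha subunit, lay below at 5.27. Of 12 markers of fibroblasts, leukocytes, chromaffin and endothelial cells, 4 lay above it (COL1A1, COL1A2, DCN and CD3E), and the chromaffin markers TH, DBH and CHGA all lay below. With CX-4945, 6 of the 9 adrenocortical markers were called lower, NR5A1, STAR, CYP11A1 (14.4 to 8.07), CYP17A1, HSD3B2 and SCARB1. CYP21A2 was called higher, and INHA and FDX1 were not called. Of the other markers, DCN (6.86 to 7.66) and CD14 (6.05 to 7.73) were called higher and the other 10 were not called. The part of other cells and of the fall of adrenocortical genes in the results was not tested. In bulk RNA, fewer cells with an RNA and less of it per cell cannot be told apart. Whether the replicates came from separate cultures is not stated, so the p-values reflect array-to-array spread alone, which may be technical.

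Most antisense RNAs did not pass the test, and those that did split between rises and falls. Of the 903, 58 were higher and 68 lower with CX-4945 (limma, adjusted p under 0.05 over all 33616 genes). That is 13.95% of the antisense RNAs, beside 22.8% of all genes called. By direction, 6.42% were higher beside 10.3% of all genes, and 7.53% were lower beside 12.5%. Of their 818 sense genes, 98 were higher and 201 lower, or 36.6%. Among the called antisense RNAs, 31 rose and 40 fell by 2-fold or more. The background share for such a change in either direction was 11.4%. Without CX-4945 replicate 2 the antisense counts were 70 higher and 70 lower.

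The balance of directions depended on the scale of the arrays. The median log2 difference of the antisense RNAs was 0.04 as deposited, when that of all genes was 0.02. After quantile normalization the 2 medians were -0.07 and -0.09, and with equal array medians -0.09 and -0.11. The calls then became 46 higher and 93 lower, and 47 higher and 95 lower. Rises thus made up 33.1% of the calls under either scaling, compared with 46.0% as deposited. All differences below are on the deposited scale.

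Few antisense RNAs were bright. Of the 903 antisense RNAs, 284 (31.5%) had a mean above the background level in at least 1 group, compared with 519 of 818 sense genes. Among these 284, 38 were higher and 54 lower, 32.4% in all, beside 39.2% of all genes above that level. Among the 619 below it, 20 were higher and 14 lower, 5.49%, beside 5.33% of all such genes. An RNA counted as above the level through either group, so those that changed across it enter the first set by their change. For 18 of the antisense RNAs called higher the DMSO mean lay below the level and the treated mean above it, and for 18 called lower the reverse. Their folds therefore rest on the floor of the measurement. A change of any gene below the level in either group is given as measured and may be smaller than the true one, and a difference between 2 changes that includes such a gene is only as measured.

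**Figure D1:**
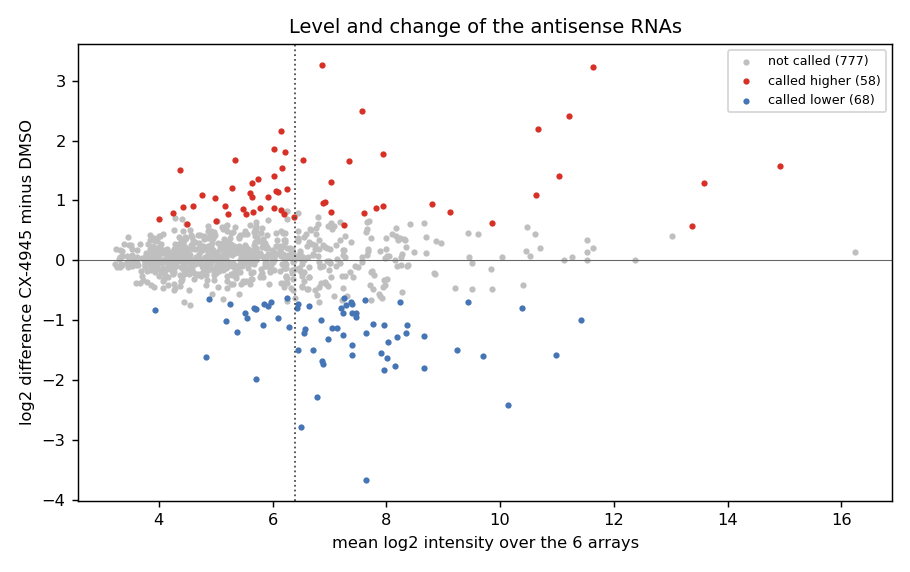
Log2 difference between CX-4945 and DMSO (vertical axis) against the mean log2 intensity over the 6 arrays (horizontal axis) for each of the 903 antisense RNAs. Red points are the 58 called higher, blue points the 68 called lower and grey points the 777 not called, and the dotted line is the background level at 6.40. Most grey points lie left of the line.

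In the 903 antisense RNAs, all treated values lay above all DMSO values in 137 and below them in 117. These are 15.2% and 13.0%, beside 17.6% and 18.4% of all genes. Of the 126 called, 123 had groups that did not overlap. The median SD over the members was 0.19 in DMSO and 0.23 in CX-4945 on the log2 scale (n = 3 each). The median level of the antisense RNAs was 5.35 to 5.38 on the DMSO arrays and 5.42 to 5.52 on the treated arrays, highest on CX-4945 replicate 2. Of the 58 called higher, 36 kept their call in every alternative in which they were tested, and of the 68 called lower, 41 did.

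The highest rise was that of TET2-AS1, which overlaps TET2, the gene of a dioxygenase that oxidises methylated cytosine in DNA. Its log2 intensities were 5.31, 4.94 and 5.47 in DMSO and 9.12, 7.85 and 8.56 in CX-4945. The treated values lay far above the DMSO values, which were all below background, and CX-4945 replicate 2 was the lowest treated array. The log2 difference was 3.27 ± 0.29 (SE), or 9.64-fold, with a limma adjusted p of 5.44e-06. TET2 itself differed by 0.17 ± 0.17 and did not pass (adjusted p = 0.553).

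THAP9-AS1, whose promoter window is printed above with that of THAP9, rose 9.38-fold. THAP9 encodes a protein related to the transposase of the P element of Drosophila. The log2 intensities of THAP9-AS1 were 9.98, 10.20 and 9.87 in DMSO and 13.65, 12.81 and 13.29 in CX-4945, well above background in both groups. The log2 difference was 3.23 ± 0.21 (adjusted p = 4.03e-07, limma). THAP9 gave -0.56 ± 0.34, with groups that overlapped and a low value of 5.18 on CX-4945 replicate 2. The difference between the 2 changes was 3.79, with a 95% interval of 2.80 to 4.77.

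EPB41L4A-AS1 rose together with its sense gene, which encodes a protein of the band 4.1 family that links membranes to the cytoskeleton. Its log2 intensities were 10.003, 10.13 and 9.88 in DMSO and 12.36, 12.59 and 12.30 in CX-4945. The groups were tight and did not overlap. The log2 difference was 2.41 ± 0.16 (adjusted p = 5.83e-07, limma), and that of EPB41L4A 2.27 ± 0.19. The difference between them, 0.14, had an interval of -0.62 to 0.90 and so did not exceed the spread between arrays. Along with THAP9-AS1 it is one of 4 members whose annotated span holds a snoRNA gene, SNORA13 here and SNORD143 and SNORD144 there. The other 2, STARD7-AS1 and STX18-AS1, were named after their values were seen and were not called.

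DLGAP1-AS2, which overlaps a scaffold gene of the postsynaptic density, rose 5.61-fold. Its log2 intensities were 6.21, 6.20 and 6.59 in DMSO and 8.20, 9.32 and 8.95 in CX-4945. The treated arrays were all higher and spread over more than 1 log2 unit. DLGAP1 had 2 rows, and its brighter row differed by 0.38 ± 0.22, below background in both groups and past no threshold.

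MMP24-AS1, named for the gene of a membrane-type matrix metalloprotease, rose 4.59-fold from 9.56 ± 0.05 to 11.76 ± 0.29 (SD, n = 3 each), and MMP24 stayed below background in both groups. CERS6-AS1 had log2 intensities of 4.41, 5.41 and 5.39 in DMSO and 7.40, 6.77 and 7.53 in CX-4945. Its DMSO values were all below background and its treated values all above. The ceramide synthase gene CERS6 was higher by 0.56 ± 0.17, a call lost in 6 of 14 alternatives, among them the fits without CX-4945 replicate 1 or 3 or DMSO replicate 1 or 3, with adjusted p up to 0.156. NADK2-AS1 rose by 1.86 ± 0.25 while NADK2, the mitochondrial NAD kinase, fell by 0.76 (adjusted p = 0.00953, limma).

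IDI2-AS1, SLFNL1-AS1 and MAGEA8-AS1 complete the 10 highest, with log2 differences of 1.81 ± 0.22, 1.77 ± 0.19 and 1.67 ± 0.21. IDI2 encodes an isopentenyl diphosphate isomerase and MAGEA8 a cancer-testis antigen. Their sense genes did not pass, with 0.51 for IDI2, -0.08 for SLFNL1 and 0.02 for MAGEA8. IDI2 passed without CX-4945 replicate 3 (adjusted p = 0.0311, limma). IDI2 and SLFNL1 were below background in both groups. MAGEA8 was not, at 8.92 ± 0.38 in DMSO and 8.94 ± 0.33 in CX-4945.

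**Figure D2:**
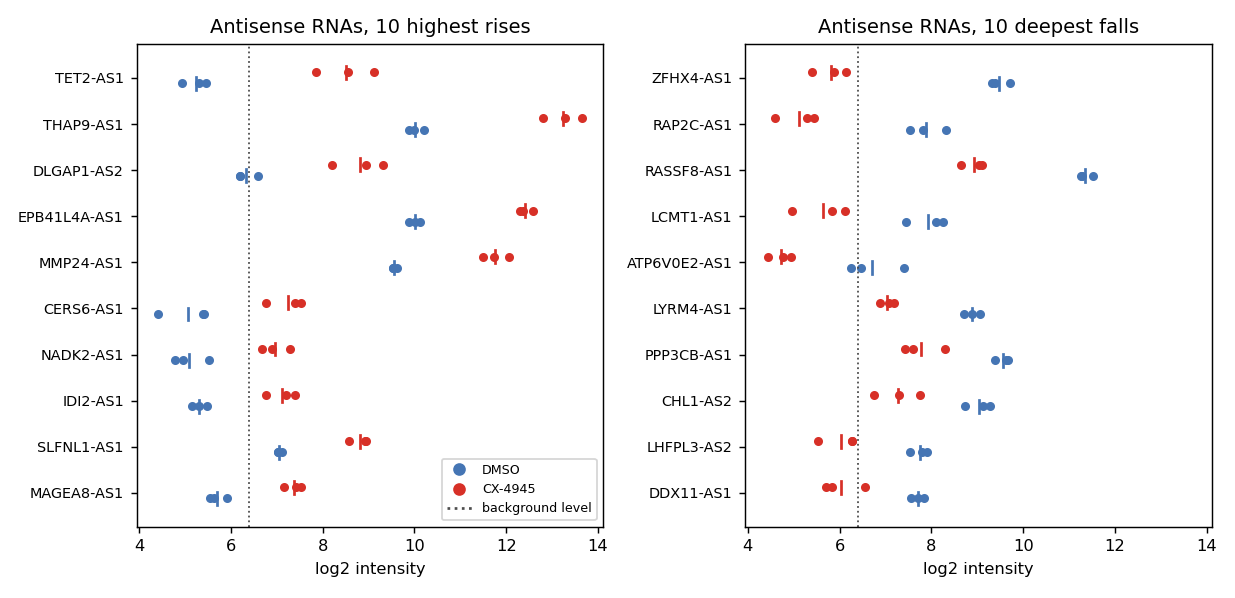
Log2 intensity of the 10 antisense RNAs with the highest rises (left) and the 10 with the deepest falls (right) on each array. Blue points are the DMSO arrays, red points the CX-4945 arrays (3 each), vertical ticks their means and the dotted line the background level. No red point overlaps the blue points of its row, by the rule that chose them, and 5 of the rising RNAs have all DMSO points left of the line.

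The deepest fall was that of ZFHX4-AS1, named for a zinc finger homeobox factor. Its log2 intensities were 9.33, 9.71 and 9.39 in DMSO and 5.88, 6.13 and 5.40 in CX-4945. All treated values were below background, so the measured 12.8-fold fall depends on that floor. The log2 difference was -3.67 ± 0.23 (adjusted p = 2.84e-07, limma). ZFHX4 fell too, by 0.92 on the log2 scale (adjusted p = 0.00767), and the changes differed by -2.76 (95% interval -4.03 to -1.48).

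RAP2C-AS1, opposite a small GTPase of the Ras family, had log2 intensities of 7.53, 8.32 and 7.82 in DMSO and 5.29, 5.45 and 4.59 in CX-4945. The treated values lay below background and below all DMSO values. The log2 difference was -2.78 ± 0.27 (adjusted p = 1.14e-05, limma), whereas RAP2C gave -0.28 ± 0.19 with overlapping groups. RAP2C passed only without CX-4945 replicate 2 (adjusted p = 0.0463). LCMT1-AS1 had log2 intensities of 8.09, 8.25 and 7.45 in DMSO and 4.97, 5.84 and 6.12 in CX-4945, and fell by 2.29 ± 0.31 to below background on every treated array. LCMT1, which methylates the catalytic subunit of protein phosphatase 2A and shares most of its promoter window with LCMT1-AS1, gave 0.39 ± 0.19 and did not pass. The 2 changes differed by -2.68 (95% interval -3.67 to -1.69).

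RASSF8-AS1 fell 5.36-fold and remained above background. Its log2 intensities were 11.25, 11.51 and 11.29 in DMSO and 9.04, 8.65 and 9.10 in CX-4945, with tight groups about 2 log2 units apart. RASSF8, which carries a Ras association domain, gave -0.21 ± 0.14 and did not pass, although all its treated values lay below its DMSO values. LYRM4-AS1, opposite a gene of iron-sulfur cluster assembly, fell by 1.84 ± 0.20, and LHFPL3-AS2 fell by 1.73 ± 0.24. Neither LYRM4 (-0.20) nor LHFPL3 (-0.02) passed, and LHFPL3 was below background.

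The other 4 of the 10 deepest falls had a sense gene that fell as well. ATP6V0E2-AS1 fell by 1.99 ± 0.28 beside -1.37 ± 0.22 for ATP6V0E2, a subunit of the proton pump of lysosomes. PPP3CB-AS1 fell by 1.80 ± 0.24 beside -0.84 ± 0.19 for PPP3CB, a catalytic subunit of calcineurin. CHL1-AS2 fell by 1.77 ± 0.26 beside -2.08 ± 0.19 for the neural adhesion gene CHL1. DDX11-AS1 fell by 1.68 ± 0.24 beside -0.90 ± 0.18 on the brightest of 3 rows of the DNA helicase gene DDX11, whose call was lost when its rows were averaged (adjusted p = 0.498).

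Of the pairs in which both partners were called, more changed in the same direction than in opposite directions, but in most pairs 1 partner or neither was called. In 495 of the 903 pairs neither partner was called, in 282 only the sense gene and in 75 only the antisense RNA. Both were called in 51 pairs, 35 in the same direction (12 higher and 23 lower) and 16 in opposite directions. Falls were the more frequent calls among both the antisense RNAs and the sense genes. The counts that unrelated partners would give were not computed. Across the 903 pairs, which share the same 6 arrays and are not independent, the 2 log2 differences correlated at r = 0.17 (Spearman 0.13), and they had the same sign in 480. In the 214 pairs with both partners above background, r was 0.19 and 121 had the same sign. The count of pairs with both higher was 6 without CX-4945 replicate 3 or DMSO replicate 1 and 7 without DMSO replicate 2. With quantile normalization 42 pairs, and with equal array medians 45, had both partners lower.

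The antisense calls were also counted by the call of the sense gene. Where the sense gene was higher (101 pairs), 12 antisense RNAs were higher and 5 lower, or 11.9% and 4.95%. Where it was lower (232 pairs), 11 were higher and 23 lower, or 4.74% and 9.91%. Where it was not called (570 pairs), 35 were higher and 40 lower, or 6.14% and 7.02%. For the pairs with a sense gene called higher, the antisense counts were 6 higher and 3 lower without CX-4945 replicate 3, 8 and 5 without DMSO replicate 1, and 7 and 3 without DMSO replicate 2. For those with a sense gene called lower, quantile normalization gave 10 higher and 38 lower, and equal medians 10 and 40. With both partners above background, 6 of 29 antisense RNAs were higher and 3 lower where the sense gene was higher, or 20.7% and 10.3%. Where it was lower (77 pairs), 8 were higher and 19 lower, or 10.4% and 24.7%. Where it was not called (108 pairs), 10 were higher and 22 lower, or 9.26% and 20.4%. At that level the shares of lower antisense RNAs beside lower and uncalled sense genes thus lay close together. No test was made on these shares.

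**Figure D3:**
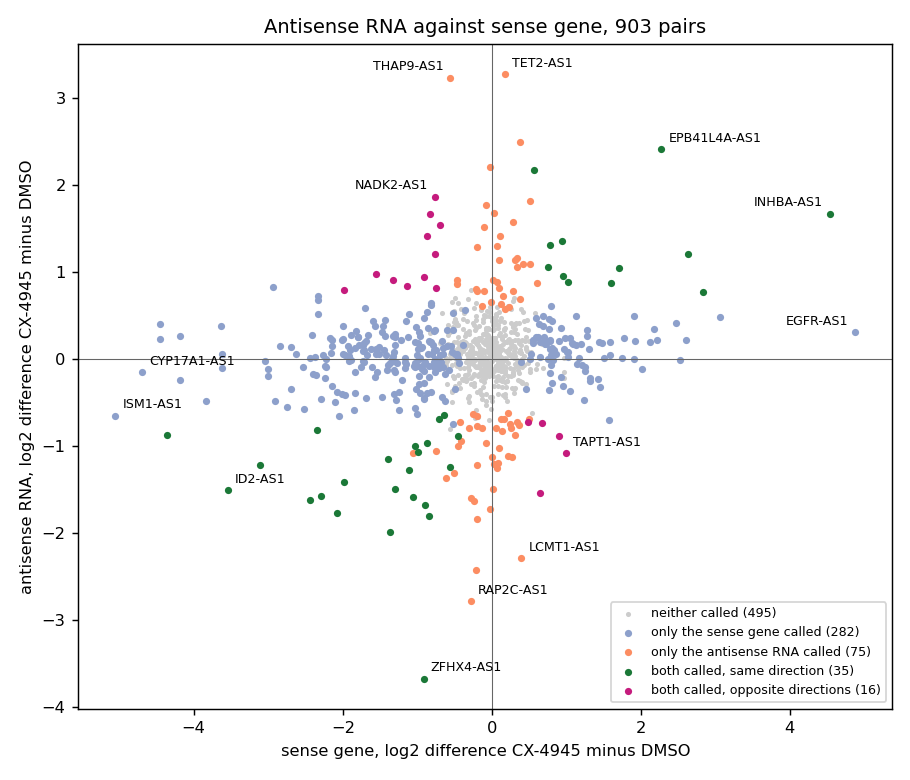
Log2 difference of the antisense RNA (vertical axis) against that of its sense gene (horizontal axis) for 903 pairs, each point 1 pair, coloured by which partner was called. Points spread along both axes more than along the diagonal, with 35 pairs called in the same direction and 16 in opposite directions.

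Among the pairs called in the same direction, 6 had the largest shared changes. CHL1-AS2 and EPB41L4A-AS1, described above, are among them. INHBA-AS1, opposite the gene of the beta A subunit of activin and inhibin, had log2 intensities of 4.34, 4.45 and 4.74 in DMSO and 6.11, 6.49 and 5.94 in CX-4945. The groups did not overlap, but only CX-4945 replicate 2 lay above the background level. The measured rise was 1.67 ± 0.21, which the floor may understate since both means lay below background, and that of INHBA was 4.53 ± 0.33.

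ID2-AS1 had log2 intensities of 7.50, 7.49 and 7.39 in DMSO and 5.81, 5.87 and 6.20 in CX-4945, and all treated values fell below background. ID2, which encodes an inhibitor of DNA binding by helix-loop-helix factors, had log2 intensities of 16.52, 16.34 and 16.46 in DMSO and 12.89, 13.19 and 12.59 in CX-4945. The log2 difference of ID2 was -3.55 ± 0.15. That of ID2-AS1, -1.50 ± 0.20, is limited by the floor, so the sizes of the falls were not ranked. PSMB8-AS1 and PSMB8, a subunit of the immunoproteasome, both fell, with log2 differences of -1.62 ± 0.18 and -2.44 ± 0.27, the antisense RNA below background throughout. PRKCQ-AS1, bright in both groups, fell by 1.58 ± 0.17, and PRKCQ, the theta isoform of protein kinase C, fell by 2.30 ± 0.24. The interval of their difference, -0.37 to 1.80, included 0.

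The 23 pairs with both partners lower had median log2 differences of -1.28 for the antisense RNA and -1.11 for the sense gene. In the 12 pairs with both higher the medians were 1.13 and 1.31.

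Median changes were below 1 log2 unit in the pairs called in opposite directions. In the 11 with a higher antisense RNA and a lower sense gene, the median log2 differences were 0.98 and -0.87, and in the 5 with the reverse they were -0.89 and 0.68. SH3BP5-AS1 had log2 intensities of 10.28, 10.14 and 10.58 in DMSO and 11.96, 11.37 and 11.91 in CX-4945. It rose by 1.41 ± 0.20 (adjusted p = 2.35e-04, limma), and SH3BP5, an activator of the GTPase RAB11, fell by 0.87 (adjusted p = 0.00602). The changes differed by 2.29 (95% interval 0.99 to 3.58).

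TAPT1-AS1 had log2 intensities of 8.55, 9.17 and 9.01 in DMSO and 7.82, 7.66 and 8.01 in CX-4945, and TAPT1 of 12.56, 12.73 and 12.89 in DMSO and 13.76, 13.59 and 13.81 in CX-4945. The antisense RNA was lower and the sense gene higher on every treated array. The log2 differences were -1.08 ± 0.22 and 0.99 ± 0.15. PRRT3-AS1 rose by 0.98 ± 0.22 and PRRT3 fell by 1.56, to below background. CLYBL-AS1 and CLYBL, a mitochondrial lyase, gave 0.90 ± 0.20 and -1.33 ± 0.17, and THAP7-AS1 and THAP7 gave -0.89 ± 0.20 and 0.90 ± 0.18. Both of these antisense RNAs were below background in both groups.

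CARD8-AS1 gave 0.93 ± 0.25 and CARD8, a gene of inflammasome signalling, -0.91 ± 0.17 on its brighter row. The other row of CARD8 went up, by 0.98, so the direction of that sense gene depends on the row. The call of CARD8-AS1 was lost after quantile normalization and without CX-4945 replicate 3, DMSO replicate 1 or DMSO replicate 2, with adjusted p up to 0.0797. The count of pairs with a lower antisense RNA and a higher sense gene, 5, was 2 without CX-4945 replicate 3, DMSO replicate 2 or DMSO replicate 3 and 3 without CX-4945 replicate 1.

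**Figure D4:**
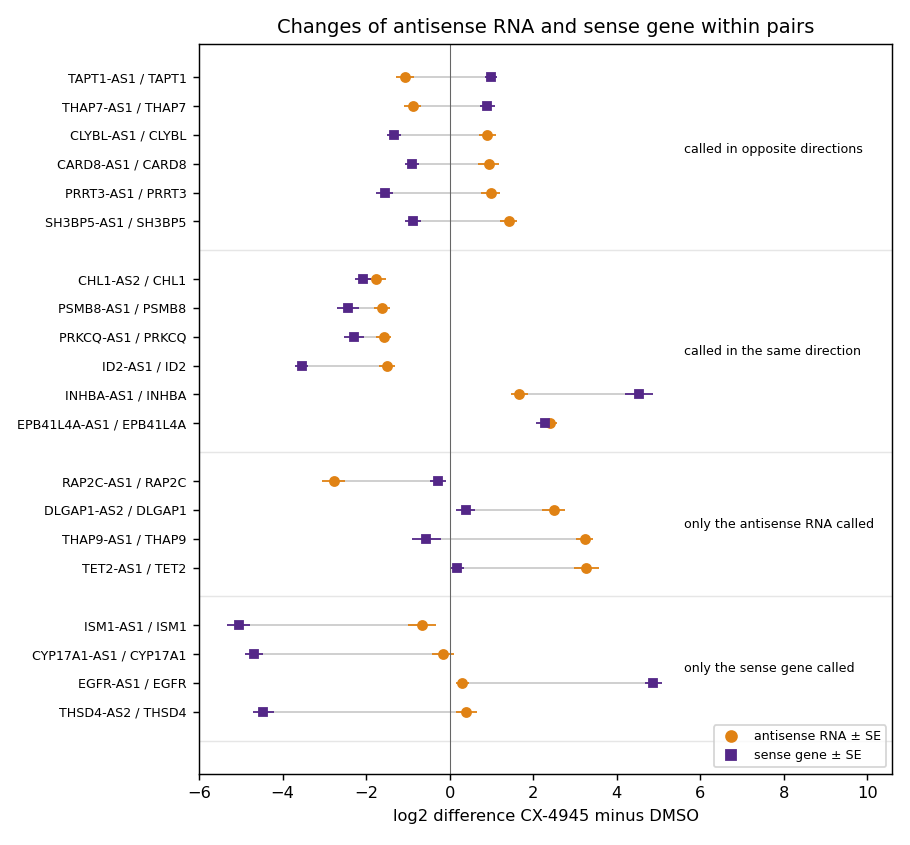
Log2 difference between CX-4945 and DMSO (horizontal axis) of the antisense RNA (orange circles) and the sense gene (purple squares) in 20 pairs, with bars for the SE of the fit, grouped by which partners were called. In the top group the symbols lie on opposite sides of 0, and in the lowest group the squares lie beyond 4 log2 units while the circles stay within 1 of 0.

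Large changes of a sense gene also occurred without a call of its antisense RNA. CYP17A1, the steroid 17-hydroxylase, had log2 intensities of 14.68, 14.71 and 14.77 in DMSO and 9.57, 10.57 and 9.96 in CX-4945. CYP17A1-AS1, which overlaps it, had 6.33, 5.87 and 6.11 in DMSO and 5.54, 6.56 and 5.74 in CX-4945, with means below background in both groups and overlapping values. The sense gene changed by -4.69 ± 0.22 and the antisense RNA by -0.16 ± 0.27 (adjusted p = 0.762, limma). The growth factor receptor gene EGFR rose by 4.88 ± 0.19, and EGFR-AS1 gave 0.31 ± 0.16 at levels below background, without a call although its groups did not overlap. ISM1 fell by 5.05 ± 0.27 and THSD4 fell by 4.46 ± 0.25, beside -0.65 ± 0.33 for ISM1-AS1 and 0.40 ± 0.25 for THSD4-AS2, both below background. THSD4 had 4 rows, all lower, with log2 differences of -0.33 to -4.46. ISM1-AS1 was called without CX-4945 replicate 3 (adjusted p = 0.0477).

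The 5 brightest antisense RNAs that were not called lay far above background. RBMS3-AS2 had log2 intensities of 16.18, 16.10 and 16.25 in DMSO and 16.30, 16.20 and 16.46 in CX-4945. Its values were nearly level across arrays. RBMS3, the gene of an RNA-binding protein that it overlaps, had 11.66, 11.78 and 11.78 in DMSO and 9.85, 9.20 and 9.75 in CX-4945 and fell by 2.14 ± 0.20. The changes differed by 2.29 (95% interval 1.81 to 2.76). OIP5-AS1, a conserved noncoding RNA known to bind the microRNA miR-7, gave 0.33 ± 0.22, and OIP5, a centromere factor, gave -0.60 ± 0.18, a call lost without CX-4945 replicate 1 or any 1 DMSO replicate.

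EMC3-AS1 differed by -0.00 ± 0.16, ZNF667-AS1 by 0.21 ± 0.16 and SVIL-AS1 by 0.41 ± 0.14. SVIL-AS1 was the nearest to a call (adjusted p = 0.063, limma) and passed in 4 of 14 alternatives, among them those without CX-4945 replicate 1 or 2. Of their sense genes, EMC3, part of an ER membrane protein complex, was higher by 0.52 ± 0.17, a call lost in 7 of 14 alternatives, among them those without CX-4945 replicate 3 or any 1 DMSO replicate. The zinc finger gene ZNF667 was higher by 0.71 ± 0.18, a call lost without CX-4945 replicate 3 or DMSO replicate 1. SVIL, which encodes the actin-binding supervillin, was below background (-0.26).

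The head to head class was set by start distance and strand, so it also holds overlapping pairs, such as RAP2C-AS1 and RAP2C. Its contrast with the overlapping class therefore does not separate pairs that run apart from pairs that overlap. Among the 223 head to head antisense RNAs, 8 were higher and 26 lower. These are 3.59% and 11.7%, beside 10.3% and 12.5% of all genes at any level. Of the 78 above background, 4 were higher and 22 lower, or 5.13% and 28.2%. Among all genes above background the shares were 17.2% and 22.0%. The share that rose was below that of all genes both ways. The share that fell was near it over all levels and larger above background. Among the 359 overlapping ones, 24 were higher and 16 lower, or 6.69% and 4.46%. Of the 103 of them above background, 16 were higher and 11 lower, or 15.5% and 10.7%. The 24 apart from the sense gene gave 4 and 4, and the 296 not placed gave 22 and 22. The median log2 differences were -0.01, 0.06, -0.01 and 0.04 in this order, and 78, 103, 13 and 89 members lay above background. With quantile normalization the counts were 7 higher and 33 lower for head to head and 21 and 26 for overlapping RNAs, so the majority of rises among the overlapping ones depends on the scale. Equal array medians gave 8 and 33, and 20 and 29. The 26 lower head to head RNAs became 17 without CX-4945 replicate 3, and the 8 higher became 12 without CX-4945 replicate 1 and 15 with array weights. In the class of 24 apart, 1 was higher without CX-4945 replicate 3 or DMSO replicate 1 and 2 without DMSO replicate 3, while 2 were lower without CX-4945 replicate 1, DMSO replicate 2 or DMSO replicate 3. Median GC content of the promoter windows was 65.0% for head to head and 49.3% for overlapping antisense RNAs, and the part of base composition in these counts was not tested.

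**Figure D5:**
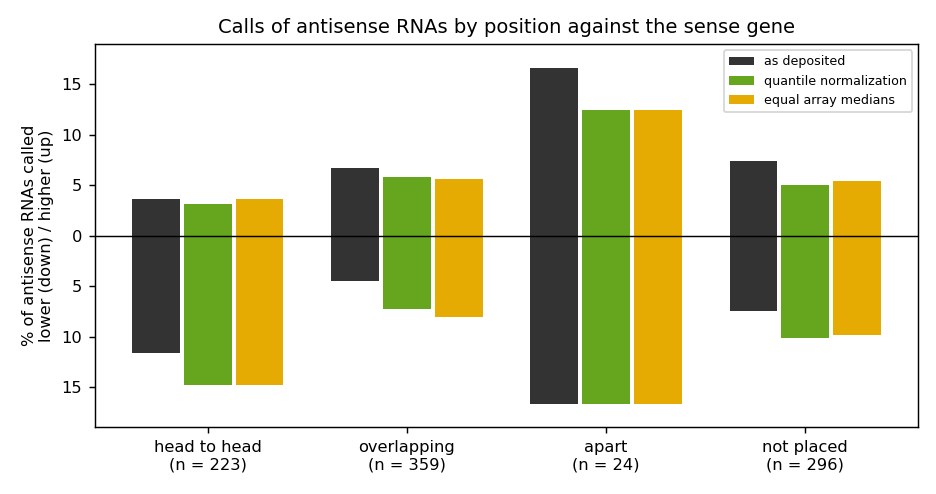
Share of antisense RNAs called higher (bars up) or lower (bars down) with CX-4945, in percent of the members of each arrangement, as deposited and under 2 other scalings of the arrays. The head to head class has longer bars down than up under all 3 scalings, whereas the overlapping class has the longer bar up only as deposited. The head to head class, set by start distance and strand, also includes pairs that overlap.

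Partners moved together only loosely in either arrangement. The correlation of the 2 differences was 0.15 in the head to head pairs and 0.19 in the overlapping pairs. With both partners above background it was 0.21 over 66 head to head pairs and 0.26 over 81 overlapping pairs. Head to head pairs held 9 called in the same direction, 8 of them lower, and 5 in opposite directions. Overlapping pairs held 13 in the same direction and 5 in opposite directions, all 5 with a higher antisense RNA. Differences between these correlations were not tested.

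Of the 65 sense genes with several antisense RNAs, which had 150 between them, 4 had at least 2 called. The called RNAs of FER1L6, KCNAB1 and DLGAP1 went one way, with 2 higher each, while DPP10 had DPP10-AS1 lower and DPP10-AS3 higher. DLGAP1 had 5 antisense RNAs, whose changes spanned 2.58 log2 units, and the others were not called. The call was kept in 7 of 12 alternatives for DLGAP1-AS3, 8 of 12 for DPP10-AS3 and 11 of 14 for FER1L6-AS2. The other called RNAs of these sense genes kept theirs in every alternative that tested them. These 4 sense genes were named after their values were seen. The 2 RNAs of KCNAB1 differed from each other by 0.06 log2 units in their change, and those of FER1L6 by 0.50.

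The antisense RNAs were also grouped by the role of the sense gene, by the start of its symbol. Those of developmental transcription factors had 2 higher and 7 lower of 36, or 5.56% and 19.4%. Beside these stand 6.42% and 7.53% of all antisense RNAs and 10.3% and 12.5% of all genes. The 34 sense genes of this list had 5 higher and 7 lower, or 14.7% and 20.6%. Of the 34, 21 lay above background, where 17.2% of all genes were higher and 22.0% lower. Without DMSO replicate 2 or DMSO replicate 3, 4 of the antisense RNAs were lower. No antisense RNA of the list was higher under either scaling or without CX-4945 replicate 1 or DMSO replicate 2, and 1 was without CX-4945 replicate 2 or 3 or DMSO replicate 3. ZFHX4-AS1 is one of the 7. DLX6-AS1, whose mouse counterpart is known to act at enhancers of Dlx genes, is another. It had log2 intensities of 6.31, 6.41 and 6.42 in DMSO and 5.49, 5.39 and 5.00 in CX-4945, with means below background in both groups. It fell by 1.09 ± 0.20 (adjusted p = 0.00163, limma), and DLX6 gave -1.05 ± 0.36 with a high value of 6.39 on CX-4945 replicate 2. Without that array and in 5 other alternatives DLX6 passed.

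For zinc finger genes, 3 antisense RNAs were higher and 1 lower of 30, or 10% and 3.33%, beside 10.3% and 12.5% of all genes. Of 26 sense genes 8 were higher and 4 lower, or 30.8% and 15.4%. Of the 26, 23 lay above background, where 17.2% of all genes were higher and 22.0% lower. Of these sense genes 1 was lower without DMSO replicate 2, 6 with equal medians and 7 after quantile normalization. ZNF561-AS1 fell by 1.54 ± 0.22, beside ZNF561 at 0.64 ± 0.19, a call lost in 6 of 14 alternatives, among them those without CX-4945 replicate 1 or 3 or DMSO replicate 2 or 3. Both scalings gave 3 higher and 3 lower antisense RNAs in this list, and without CX-4945 replicate 3 or DMSO replicate 3 there was 1 of each. Without CX-4945 replicate 2 or DMSO replicate 1, 2 were lower. ZFPM2-AS1, named for a cofactor of GATA factors, rose by 1.09 ± 0.22, with log2 intensities of 10.05, 10.01 and 10.22 in DMSO and 11.31, 10.70 and 11.54 in CX-4945. ZFPM2 was below background in both groups and passed only without CX-4945 replicate 2 (adjusted p = 0.0410).

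For channels, carriers and pumps, 6 antisense RNAs were higher and 3 lower of 45, or 13.3% and 6.67%. Of 40 sense genes 5 were higher and 9 lower, or 12.5% and 22.5%. Both scalings gave 4 and 4 for these antisense RNAs, and 3 were higher without CX-4945 replicate 3 or DMSO replicate 1. ATP6V0E2-AS1 and SLC44A3-AS1 had the smallest p. SLC44A3-AS1, named for a choline transporter-like gene, fell by 1.59 ± 0.23 and SLC44A3 fell by 1.06 ± 0.23, the latter below background in both groups. For kinases, phosphatases and GTPase signalling, 2 antisense RNAs were higher and 5 lower of 30, or 6.67% and 16.7%. They stand beside the same shares of all genes. Of 28 sense genes 8 were higher and 7 lower, or 28.6% and 25%. Of the 28, 24 lay above background, where 17.2% of all genes were higher and 22.0% lower. Of these sense genes 4 were higher without CX-4945 replicate 3, and 5 without DMSO replicate 3 or under either scaling. Under both scalings 1 antisense RNA was higher. RASSF8-AS1 and PRKCQ-AS1 had the smallest p in that list. Without CX-4945 replicate 3, DMSO replicate 2 or DMSO replicate 3, 3 were lower, and without any 1 of CX-4945 replicates 1 and 3 and DMSO replicates 1 and 3, 1 was higher.

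In the remaining lists few antisense RNAs were called. Their shares stand beside 10.3% higher and 12.5% lower of all genes. For RNA, ribosome and protein turnover, 3 of 35 were lower (8.57%) and none higher. Among the 3 were PSMB8-AS1 and DDX11-AS1, the latter by its symbol, since DDX11 acts on DNA. Of 32 sense genes 3 were higher (9.4%) and 10 lower (31.25%), and 1 was higher with equal medians or without DMSO replicate 3. Of the 32, 28 lay above background, where 17.2% of all genes were higher and 22.0% lower. Both scalings gave 5 lower antisense RNAs. Rises of antisense RNAs appeared when an array was left out, 2 without CX-4945 replicate 2 and 1 without CX-4945 replicate 3 or DMSO replicate 1. For cell cycle, DNA and chromatin, 1 of 15 was lower (6.67%), and 2 were without DMSO replicate 2. The 1 was TMPO-AS1, which fell by 1.26 ± 0.19, with log2 intensities of 9.20, 9.40 and 9.28 in DMSO and 7.97, 8.29 and 7.83 in CX-4945. TMPO, the gene of a protein of the nuclear lamina, gave 0.06 ± 0.13, and the changes differed by -1.32 (95% interval -1.96 to -0.68). TPRG1-AS1, which the start of the symbol puts in this list, gave -0.49 ± 0.25 and TPRG1 -0.07 ± 0.19, and neither passed, although TPRG1-AS1 did without DMSO replicate 2 (adjusted p = 0.0470). For cytoskeleton, motors, adhesion and matrix, 1 of 28 (3.57%) was higher, EPB41L4A-AS1. Falls appeared under other scales, 2 after quantile normalization and 3 with equal medians, and 1 without CX-4945 replicate 2. MAP3K14-AS1, in that list by its symbol although MAP3K14 is a kinase of NF-kB signalling, gave -0.59 ± 0.21 (adjusted p = 0.0664, limma) and passed in 7 of 14 alternatives, among them that without CX-4945 replicate 2. MAP3K14 gave -0.21, below background.

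For steroid, lipid and mitochondrial metabolism, 6 of the 12 sense genes were lower, or 50%, beside 24.6% of all sense genes. Of these 12, 10 lay above background, where 36.6% of all sense genes and 22.0% of all genes were lower. Of the 12 antisense RNAs 1 was lower, or 8.33%, beside 7.53% of all antisense RNAs and 12.5% of all genes. That RNA was STARD4-AS1, opposite the gene of a cytosolic cholesterol carrier, with log2 intensities of 9.90, 9.90 and 10.19 in DMSO and 9.17, 8.33 and 8.004 in CX-4945. Its treated values lay below all DMSO values, and it fell by 1.49 ± 0.27 (adjusted p = 0.00125, limma). STARD4 gave 0.02 ± 0.18, and the changes differed by -1.52 (95% interval -2.34 to -0.69). IDH1-AS1 gave -0.75 ± 0.25 below background and passed in 5 of 12 alternatives, among them those without CX-4945 replicate 3 or DMSO replicate 2. IDH1, the cytosolic isocitrate dehydrogenase, gave -0.53 ± 0.15, a call lost without CX-4945 replicate 1 or 3 or DMSO replicate 1 or 2. In this list 2 antisense RNAs were lower under both scalings and without CX-4945 replicate 3 or DMSO replicate 2, and 1 was higher without CX-4945 replicate 3. The 672 antisense RNAs in no list had 44 higher and 47 lower, or 6.55% and 6.99%, beside 10.3% and 12.5% of all genes.

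In 41 of the 48 named pairs the antisense to sense ratios of the 2 groups did not overlap, beside 46.6% of all 903 pairs. The pairs were named for their changes, which largely fixes that count, so nothing is read from it. A two-sided exact permutation test of 3 against 3 arrays cannot give a p below 0.1, and the intervals are given instead. In 7 pairs they overlapped, those of CHL1-AS2, PRKCQ-AS1, EPB41L4A-AS1, DLX6-AS1, IDH1-AS1, MAP3K14-AS1 and TPRG1-AS1.

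Other noncoding RNAs on the arrays are given for context. Of 928 intergenic LINC RNAs, 69 were higher and 32 lower, with a median log2 difference of 0.09. These are 7.44% and 3.45%, beside 10.3% and 12.5% of all genes. With quantile normalization the counts were 47 and 47, and with equal medians 46 and 51, so the majority of rises depends on the scale. Without DMSO replicate 1, 42 LINC RNAs were higher. Above background, 40 of 175 LINC RNAs were higher and 19 lower, or 22.9% and 10.9%, beside 13.4% and 19.01% of the 284 antisense RNAs. Of all genes above background, 17.2% were higher and 22.0% lower, so both antisense shares lay somewhat below those of all genes. The 82 antisense RNAs whose sense gene had no row of its own gave 3 higher and 8 lower, or 3.66% and 9.76%. The 4 snoRNA host RNAs gave 1 higher and 0 lower. No test of the difference between these classes was made.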

How the data were processed

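H295R RNA was hybridised to 6 whole-transcript arrays, in 2 groups of 3 by the sample titles. The submitters' processing notes name Affymetrix Expression Console. Sources used here state no version, setting or genome build. Per the files, the deposited intensities are linear, from 6.41 to 919659. Normalization by the authors was assumed. Array medians, from 40.7 to 46.5, do not settle it, since every treated median lay above every DMSO median.

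The log2 of each intensity was taken with no pseudocount. The platform's annotation gave 1 symbol to 36176 of 135750 rows and several to 1119, and 98455 rows are unnamed here. For a gene with several rows the brightest stood, which applied to 24 of the 903 members. CX-4945 was compared with DMSO over all 33616 genes by limma 3.58.1 (R 4.3.3, lmFit and trended eBayes). Its two-sided p-values were adjusted by Benjamini-Hochberg and called under 0.05. Differences are CX-4945 minus DMSO with the SE of the fit. Within a pair, the antisense minus sense log2 value was formed per array, which compares changes and not levels. Its 95% interval uses the pooled spread of the 3 arrays per group with 4 residual degrees of freedom.

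The number of arrays limits the precision. The fit was tested on simulated data with known changes. Members, lists and the background level were chosen with earlier results of these data known. Named are the 10 highest and 10 lowest called members without overlap, the 6 pairs with the largest shared change in the same and in opposite directions, the 4 largest calls of 1 partner alone each way, the 5 brightest uncalled members and 2 members of each role list with the smallest p. Others are said to be named after their values were seen. The replicate numbers were not used to pair the arrays, since the labels do not say that they do (see the closing section). As alternatives, arrays were quantile-normalized, set to equal medians, weighted or left out singly, the trend was dropped, genes under the 25th percentile or the median of means, or members under the background level, were removed, rows were averaged and the replicate number was a block. Motifs were searched in RefSeq windows on both strands. Plots used matplotlib 3.10.9.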

Additional observations from a re-analysis of the deposited data

How the results depend on the processing

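Calls of antisense RNAs ranged from 92 without DMSO replicate 3 to 160 with array weights, against 126. A filter at the median of gene means left 262 members, with 36 higher and 58 lower. The filter at the 25th percentile left 589, with 59 higher and 74 lower. The part of the smaller number of genes in these counts was not tested. Of the 284 members above the olfactory receptor level, 38 were higher. Pairs with both partners higher (12) numbered 5 under the median filter and 6 above the olfactory receptor level, and 6 to 15 when 1 array was left out. Pairs with both lower (23) numbered 45 with equal array medians and 42 with quantile normalization. Pairs with a higher antisense RNA and a lower sense gene (11) numbered 18 with array weights, and the cause was not tested. Pairs with the reverse (5) numbered 2 with equal medians, 3 under the median filter, 3 above the olfactory receptor level and 2 to 6 when 1 array was left out. The other counts over all antisense RNAs, sense genes or pairs, their medians and the correlation across pairs stayed within 1.5 times or the spread between replicates in the alternatives run. Some counts by arrangement, by role list, by the call of the sense gene and for LINC RNAs moved more, as given above. Of 36 named antisense RNAs that were called, 35 kept the call in every alternative that tested them, the exception being CARD8-AS1, and of 29 named sense genes 21 did. One of the other 8, CARD8, changed sign, to 0.0378, with the mean of its 2 rows. Averaging rows also moved the difference between the changes to 0.90 for CARD8-AS1, -1.47 for DDX11-AS1 and 2.20 for THSD4-AS2. Same-numbered replicates deviated together at 0.09, 0.09 and -0.04 across genes, beside -0.14 to 0.05 for the other combinations. The labels do not say whether the numbers pair cultures, and so few arrays cannot settle it. With the replicate block 64 antisense RNAs were higher and 70 lower, and no count over all antisense RNAs, sense genes or pairs moved by over 1.5 times. Some counts of role lists did, such as the lower antisense RNAs of zinc finger genes, 2 against 1. Of 903 antisense RNAs 619 lay below the background level in both groups, where an array's floor limits what can be called. Values of named genes called neither as reported nor under the alternative changed sign in 24 cases.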
